A study of Homo sapiens with 8 samples.

Results

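Initiator (tRNA-iMet-CAT) and elongator (tRNA-Met-CAT) methionine tRNAs were followed through aldehyde-reactive probe (ARP) sequencing of human cells. Every peak of the tRNA and rRNA lists whose reference carried either name was taken. There were 37 such peaks of 4746 in all libraries, and they merged into 6 regions of 1373, of which 2 were initiator and 4 were elongator references. Another 150 regions lay on other cytosolic tRNAs.

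ARP carries biotin and reacts with aldehydes such as that of 5-formylcytidine (f5C). Total RNA of HEK-293, which is a line of human embryonic kidney cells, was fragmented, mixed with an f5C-containing spike-in oligo and treated with ARP, and was then sequenced before (input) and after (IP) capture on streptavidin. The cells were wild type (WT) or ALKBH1 knockout (KO), which gave 4 groups of 2 libraries: WT input, WT IP, KO input and KO IP. Inputs carried the probe and the spike-in as well, so they differ from the IPs by the capture step and the work on beads. The KO cells were made with CRISPR/Cas9 and grown from single sorted cells, so ALKBH1 loss and other differences between the lines cannot be told apart. The study's methods name 293T cells where the labels give HEK-293.

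The summed peak counts ran from 48380 to 65413 in the IP libraries, stood at 94218 and 98032 in WT input, and reached 194494 and 285539 in KO input. Only peaks of at least 10 counts were listed, which was worth between 35.0 CPM, counts scaled to the same library total, in KO input replicate 2 and 207 CPM in WT IP replicate 2. ALKBH1 itself had no sense peak in any library, so its loss could not be checked in these data. The study describes 2 biological replicates of this pulldown without saying how they were grown. Nothing in the labels says that replicates came from separate cultures, so p-values measure the spread between these libraries. In bulk RNA, fewer cells with a tRNA and less of it per cell cannot be told apart.

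Both methionine tRNAs read the same codon but do different work. The initiator is bound by eIF2 and sets the start of translation in the ribosomal P site, whereas the elongator is delivered by eEF1A to the A site and adds methionine inside the chain. ALKBH1 is a dioxygenase that oxidizes 5-methylcytidine to f5C, best known at the wobble base of mitochondrial methionine tRNA and of cytosolic tRNA-Leu-CAA. An adenosine in the T loop of many cytosolic tRNAs, the initiator included, is methylated by the TRMT6/TRMT61A enzyme.

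The sequences below were read from GRCh38 at the coordinates of the RefSeq gene table (GRCh38.p14) and are shown because the initiator and the elongator differ in sequence and because peaks are given as positions in them. Each is the DNA sequence of a tRNA gene, 5′ to 3′, with the CAT anticodon in capitals. TRX-CAT1-1 is an initiator gene on chr1:153671250-153671321, plus strand. TRM-CAT3-1 (chr6:28944575-28944647, plus strand) and TRM-CAT6-1 (chr16:87384022-87384094, minus strand) are elongator genes.
TRX-CAT1-1: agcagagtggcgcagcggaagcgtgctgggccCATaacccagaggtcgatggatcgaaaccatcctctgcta
TRM-CAT3-1: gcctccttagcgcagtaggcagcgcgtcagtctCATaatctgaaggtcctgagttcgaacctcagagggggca
TRM-CAT6-1: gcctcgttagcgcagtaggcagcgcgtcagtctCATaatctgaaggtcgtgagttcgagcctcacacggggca

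The gene table held 8 initiator genes, all 8 identical in sequence, so the reference tRNA-iMet-CAT-1 stands for all of them. It held 11 elongator genes. An alignment of TRX-CAT1-1 with TRM-CAT3-1 had 42 identical bases in 75 columns. TRM-CAT3-1 and TRM-CAT6-1 differed at 5 of 73 bases, counted from the first base of the gene: C6G, C49G, A59G, G65C and G67C. Elongator isodecoders, which share the anticodon and differ elsewhere, can therefore share reads, and counts could be split between them, whereas initiator and elongator reads are easier to keep apart. The gene behind the reference tRNA-iMet-CAT-2-1 had no entry in the table.

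The initiator was lower after the pulldown than before it in both genotypes, and by more than any other cytosolic tRNA isoacceptor tested. The elongator passed the main test in neither genotype, but passed in WT with the replicate number as a block. The peak on tRNA-iMet-CAT-1 held 494 and 575 counts in WT input, 31 and 39 in WT IP, 1251 and 1884 in KO input and 60 and 65 in KO IP. Scaled to all listed counts of a library, these were 5243 and 5865 CPM, 474 and 806 CPM, 6432 and 6598 CPM, and 1123 and 1247 CPM. Every input library lay above every IP library, and both KO IPs lay above both WT IPs. How many other features separated in these ways was not counted. Between the IPs this reference was not called (log2 of WT over KO -0.65, edgeR adjusted p = 0.181).

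Summed per isoacceptor, which groups all peaks with the same amino acid and anticodon, the initiator had 5699 ± 480.1 CPM in WT input and 640.0 ± 235 CPM in WT IP (SD, n = 2 each). The log2 IP over input was -3.20 ± 0.30 (SE) in WT, an IP level of 0.109 of the input (edgeR quasi-likelihood test, adjusted p = 0.000345). In KO the sum went from 6589 ± 142 to 1185 ± 87.4 CPM, a log2 difference of -2.66 ± 0.18 and a ratio of 0.158 (edgeR adjusted p = 3.06e-05). The initiator thus fell on capture in both lines. Among all features of these fits, 25.9% were called lower in WT and 31.6% in KO, so a lower call alone was common.

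By that size the initiator ranked lowest of 38 isoacceptors in WT and lowest of 39 in KO. The other 36 in WT had a median log2 IP over input of -0.18, with 11 lower and 8 higher, and the next lowest, tRNA-Lys-CTT, was at -1.82. In KO the other 37 had a median of -0.22, with 14 lower and 6 higher. The next lowest there, tRNA-Val-AAC, was close to the initiator at -2.43 ± 0.32 and was not tested in WT. Ranks were not tested. Only isoacceptors with a peak in every compared library were ranked, so any missing from an IP list could have fallen as far. Between the inputs, 45 isoacceptors had a peak in every library.

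**Figure D1:**
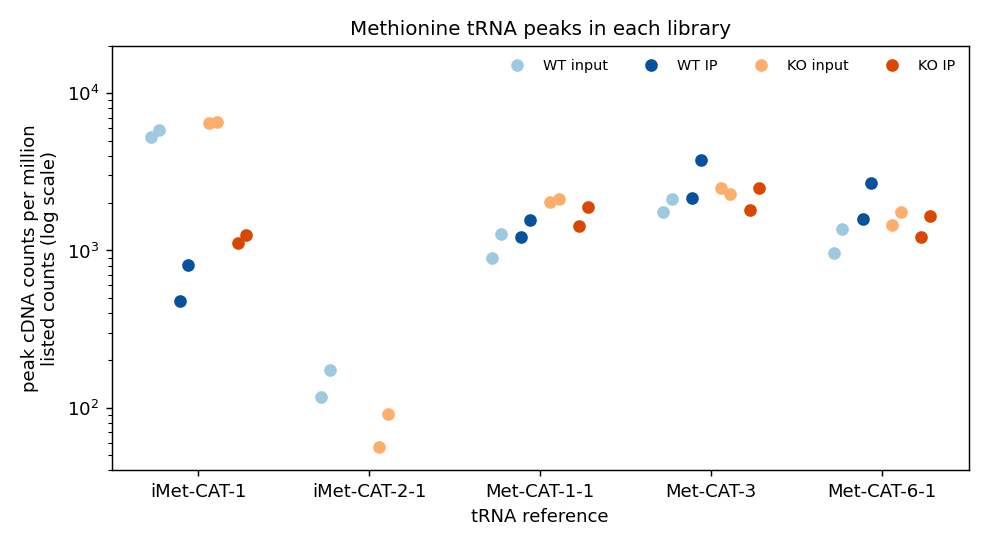
Peak counts in CPM (log scale) of each methionine tRNA reference, 1 point per library, coloured by group. The 4 inputs of iMet-CAT-1 sit between 5243 and 6598 and its 4 IPs between 474 and 1247, while inputs and IPs of the 3 elongator references lie much closer together. iMet-CAT-2-1 was listed in inputs alone, and Met-CAT-2-1, with a single peak, is not drawn.

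The second initiator reference, tRNA-iMet-CAT-2-1, was far weaker. It held 11 and 17 counts in WT input and 11 and 26 in KO input, 145 ± 40.1 and 73.8 ± 24.4 CPM (SD, n = 2 each), and it was listed in no IP library. The minimum count of an IP list was worth 153 to 207 CPM, more than the mean input levels of this reference, so its IP level was not measurable here.

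The elongator was carried by 3 references with a peak in every library. tRNA-Met-CAT-3, which joins the identical copies 3-1 and 3-2, held 166 and 208 counts in WT input, 141 and 181 in WT IP, 485 and 653 in KO input and 96 and 130 in KO IP. tRNA-Met-CAT-6-1 held 91 and 134, 104 and 130, 281 and 504, and 65 and 86 counts in that order of groups. tRNA-Met-CAT-1-1 held 84 and 125, 80 and 76, 395 and 610, and 77 and 98 counts. tRNA-Met-CAT-3 had the highest count in each library, and none of these references had the steep input to IP drop of the initiator. The other elongator reference, tRNA-Met-CAT-2-1, was listed once, with 10 counts at positions 12 to 14 in WT IP replicate 2.

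The elongator sum was 4192 ± 809 CPM in WT input and 6587 ± 2289 CPM in WT IP, and 6079 ± 155 CPM in KO input and 5239 ± 1108 CPM in KO IP (SD, n = 2 each). The WT IP replicates were far apart, at 4968 and 8206 CPM, against 3619 and 4764 CPM in WT input. The log2 IP over input was 0.62 ± 0.30 in WT (edgeR adjusted p = 0.136) and -0.40 ± 0.18 in KO (edgeR adjusted p = 0.103), and neither passed the test, which 51.9% and 56.5% of all features passed. With the replicate number as a block it passed in WT (0.61, edgeR adjusted p = 0.000692) and not in KO (-0.41, edgeR adjusted p = 0.0881). The WT difference did pass without WT IP replicate 1 (1.07) or WT input replicate 2 (0.85), and the KO difference without KO IP replicate 2 (-0.67). The elongator ranked 31 of 38 from the lowest in WT and 18 of 39 in KO. Of the 3 references fitted singly, 0 passed in either line, against 48.1% of all regions in WT and 56.5% in KO, with log2 IP over input of 0.30 to 0.81 in WT and -0.42 to -0.25 in KO. The edgeR p before adjustment was at least 0.0673 in all 6 of these tests, and a DESeq2 fit also called 0 of them. Without KO IP replicate 2 all 3 passed in KO (-0.80 to -0.67), and without WT IP replicate 1 tRNA-Met-CAT-3 (0.95) and tRNA-Met-CAT-6-1 (1.20) passed in WT. tRNA-Met-CAT-6-1 also passed in WT with all libraries kept when features needed a mean count of at least 50 (1.08, edgeR adjusted p = 0.0496). With the replicate number as a block it passed in WT as well (0.79, edgeR adjusted p = 0.0244).

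The share of initiator among all methionine tRNA counts does not depend on library scaling. It was 59.7% (95% Wilson interval 56.4 to 62.9) and 55.9% (52.9 to 58.9) in WT input and 52.1% (50.1 to 54.1) and 51.9% (50.3 to 53.6) in KO input. In the IPs it was 8.71% (6.20 to 12.1) and 8.94% (6.61 to 12.0) in WT and 20.1% (16.0 to 25.1) and 17.2% (13.7 to 21.3) in KO. The intervals cover counting error only. Inputs and IPs did not overlap, and the KO IPs lay above the WT IPs with intervals that did not meet. Other pairs of tRNAs were not compared in this way.

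On a log2 scale the initiator to elongator ratio was 0.29 ± 0.22 in the 4 inputs and -2.75 ± 0.72 in the 4 IPs (SD). The difference of -3.03 had an exact two-sided permutation p = 0.0286, the smallest that 4 against 4 allows, and all 4 IPs were lower. After Benjamini-Hochberg adjustment over 2 tests this permutation p was 0.0571, the smallest adjusted value that the design allows. The 2 splits cannot both be the most extreme, so the threshold could not be passed whatever the difference. WT against KO over both fractions differed by -0.45 (exact two-sided permutation p = 0.657). Within the IPs alone the ratio was -3.37 ± 0.030 in WT and -2.13 ± 0.20 in KO (SD, n = 2 each), and 2 against 2 allows no exact permutation p below 0.333.

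**Figure D2:**
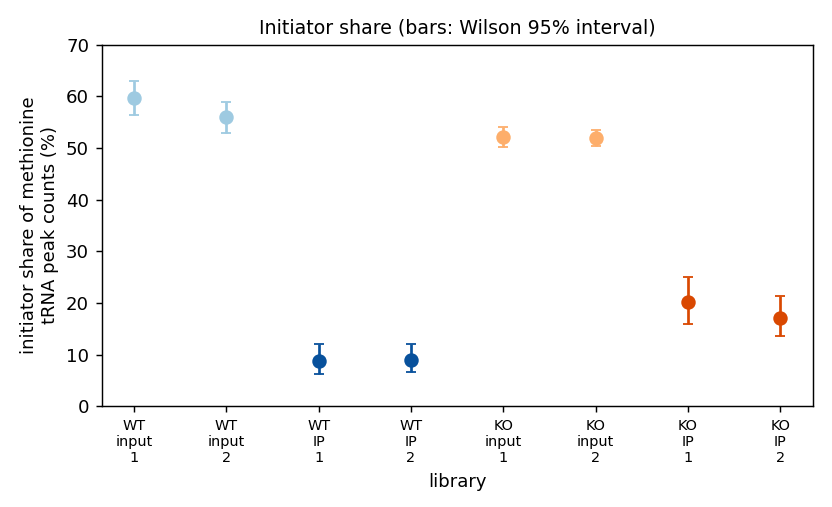
Initiator counts as a percentage of all methionine tRNA peak counts in each library, with 95% Wilson intervals as bars. The inputs lie between 51.9 and 59.7%, the WT IPs at 8.71 and 8.94%, and the KO IPs at 17.2 and 20.1%.

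Whether the pulldown acted differently in WT and KO was tested as an interaction over all 8 libraries. The elongator sum had a log2 interaction of 1.42 ± 0.42 (edgeR adjusted p = 0.0380): IP over input was higher in WT than in KO, where 21.7% of all features were called in that direction. Its peaks covered 153 nt in each KO input but 83 and 100 nt in the KO IPs. In WT they covered 122 nt in each input and 133 and 137 nt in the IPs. The interaction thus compares counts from partly different stretches, and the part of this was not tested. Of the 3 elongator references, 1 passed, tRNA-Met-CAT-6-1 at 1.39 ± 0.44 (edgeR adjusted p = 0.0469), against 19.9% of all regions. tRNA-Met-CAT-3 was at 1.12 ± 0.40 and tRNA-Met-CAT-1-1 at 1.05 ± 0.37 (edgeR adjusted p = 0.0734 and 0.0674). For tRNA-Met-CAT-1-1 the log2 of WT over KO was 0.0018 between the IPs (edgeR adjusted p = 0.995). Between the inputs it was -0.90 (edgeR adjusted p = 0.0378), so this interaction stood beside a difference between the inputs. Without WT IP replicate 1 tRNA-Met-CAT-3 passed (1.24), and the call of tRNA-Met-CAT-6-1 was lost with DESeq2 (1.24, adjusted p = 0.0700) and when any library but that one was left out (0.99 to 1.64). The initiator sum had an interaction of -0.16 ± 0.37 (edgeR adjusted p = 0.768), and tRNA-iMet-CAT-1 alone -0.31 ± 0.33.

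The elongator interaction was sensitive to the way it was computed. It lost its call with relative log expression (RLE) scaling (1.20, edgeR adjusted p = 0.0590) and with summed peak counts as library sizes (0.86, edgeR adjusted p = 0.114), and over the fits that left out 1 library it ran from 0.91, without WT IP replicate 2, to 1.77, without WT IP replicate 1, with adjusted p up to 0.168. The call was lost without any 1 of WT IP replicate 2, WT input replicate 1, and the KO libraries of either fraction. The median interaction of all features was 0.19, -0.034 with RLE and -0.35 with summed counts. Relative to that median the elongator stood at 1.22, and at 1.23 and 1.21 with the others. The other 34 isoacceptors had a median interaction of 0.33, with 7 higher and 0 lower.

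For comparison, the known substrates named above had larger interactions. tRNA-Leu-CAA summed was at 4.32 ± 0.29 (edgeR adjusted p = 1.72e-05). The region over mt-tRNA-Met, which in the inputs ran on into a neighbouring mitochondrial tRNA gene, was at 3.92 ± 0.21 (edgeR adjusted p = 1.34e-05). The elongator ranked 34 of 36 isoacceptors from the lowest.

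**Figure D3:**
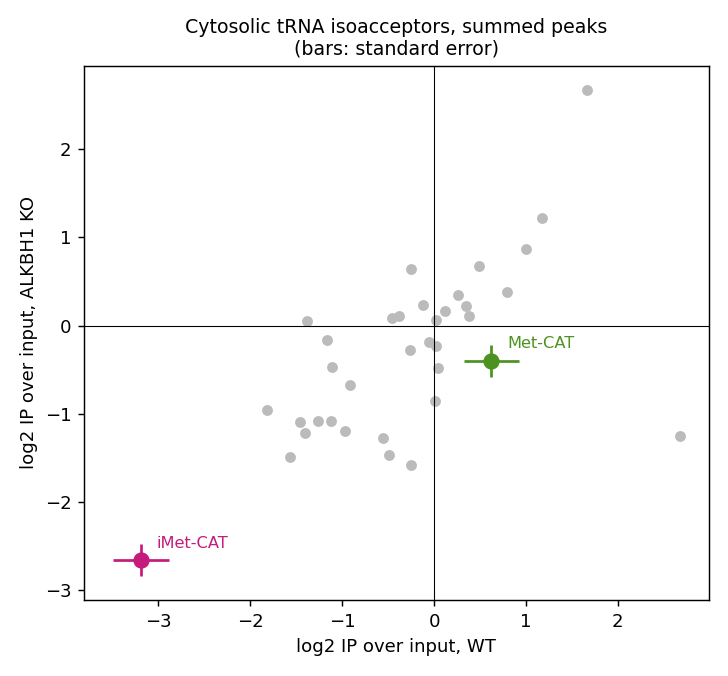
Log2 IP over input in WT (horizontal) and KO (vertical) for the 36 cytosolic tRNA isoacceptors tested in both, from the fits with peaks summed per isoacceptor. Bars on the methionine tRNAs are standard errors. The initiator lies alone at the lower left (-3.20, -2.66), and the elongator lies at 0.62 and -0.40 among the others. tRNA-Val-AAC, at -2.43 in KO, was not tested in WT and is not drawn.

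Neither methionine tRNA sum passed the test between genotypes within a fraction. Between the IPs, the log2 of WT over KO was -0.58 ± 0.35 for the initiator and 0.65 ± 0.31 for the elongator (edgeR adjusted p = 0.276 and 0.167), with 41.5% of features called. The elongator passed there without WT IP replicate 1 (1.01, edgeR adjusted p = 2.18e-05). Between the inputs it was -0.10 ± 0.10 and -0.43 ± 0.16 (edgeR adjusted p = 0.452 and 0.0926), with 28.6% called. Of the 4 references tested between the IPs 0 were called by edgeR, against 37.3% of regions, and 0 by DESeq2. Before adjustment edgeR gave 2 of the 4 a p under 0.05, tRNA-Met-CAT-3 (0.71) and tRNA-Met-CAT-6-1 (0.82), which also passed after adjustment without WT IP replicate 1 (1.06 and 1.16). Of the 5 tested between the inputs 1 was called, tRNA-Met-CAT-1-1, against 35.2% of regions, and it was lower in WT at 1083 ± 271 CPM than in KO at 2084 ± 74.5 CPM (SD, n = 2 each; log2 -0.90 ± 0.20, edgeR adjusted p = 0.0378, 19.8% of regions called lower). This call was lost with DESeq2 (-0.83, adjusted p = 0.0821) and without any 1 of the 4 libraries (edgeR adjusted p of 0.0518 to 0.132). tRNA-Met-CAT-3 and tRNA-Met-CAT-6-1 were at -0.26 and -0.41 in the inputs, and tRNA-iMet-CAT-2-1 at 0.99 ± 0.35 (edgeR adjusted p = 0.0865), and these did not pass.

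Peak boundaries also differed between the initiator and the elongator. Positions count from the first base of the tRNA. The anticodon is at 33 to 35 in the initiator and 34 to 36 in the elongator, and the T-loop adenosine is at 57 and 58. All 24 peaks of the 3 elongator references ended at position 58, at that adenosine, in every group. The 3 references can share reads, so these are not 24 independent ends. How many other tRNA references end at their T-loop adenosine was not counted. In its crosslinking data the study also reports peaks near this base in several tRNAs. The end at 58 thus cannot be called particular to the elongator. The initiator peak ended at 55 in both inputs of each genotype and in both WT IPs, and at 52 in both KO IPs. Ends below those of all 6 other libraries were found in 4.76% of the 84 cytosolic tRNA references with a peak in every library. The initiator's KO IP peaks rested on 60 and 65 counts.

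The first positions differed between groups for the elongator. tRNA-Met-CAT-1-1 began at 19 in both WT inputs, 9 in both WT IPs, 2 in both KO inputs, and 33 and 26 in KO IP. tRNA-Met-CAT-3 began at 16 in both WT inputs, 15 and 14 in WT IP, 2 in both KO inputs, and 35 and 26 in KO IP. tRNA-Met-CAT-6-1 began at 20 in all libraries but the KO IPs, where it began at 26 and 25. In the KO IPs the elongator peaks thus began later, nearer to the anticodon.

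All 3 elongator references began later in both KO IPs than in all 6 other libraries, against 26.2% of the 84 references. The median shift from WT IP to KO IP was 16 nt for the elongator references (5.5 to 20.5) and 0.5 nt for the 84 (-21.5 to 31). The 3 references are near-identical in sequence and can share reads, so they were not counted as independent. Of the 84, 23.8% began earlier in both KO inputs than in both WT inputs, as tRNA-Met-CAT-1-1 and tRNA-Met-CAT-3 did. The KO inputs held the most counts of all groups, and the part of depth in these boundaries was not tested. The initiator's first positions were 5 and 2 in WT input, 9 in both WT IPs, 4 and 2 in KO input and 9 and 2 in KO IP, with no such separation.

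TRM-CAT3-1 and TRM-CAT6-1 have 1 difference at positions 26 to 58, which hold the KO IP peaks of tRNA-Met-CAT-1-1 and tRNA-Met-CAT-3, and none of the elongator genes except TRM-CAT7-1 differs from TRM-CAT3-1 between positions 27 and 43. Reads confined to the anticodon arm could not tell these isodecoders apart. The peak positions do not give the span of the reads, however. Reads running on past position 58 would meet the differences at 59, 65 and 67 between TRM-CAT3-1 and TRM-CAT6-1.

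**Figure D4:**
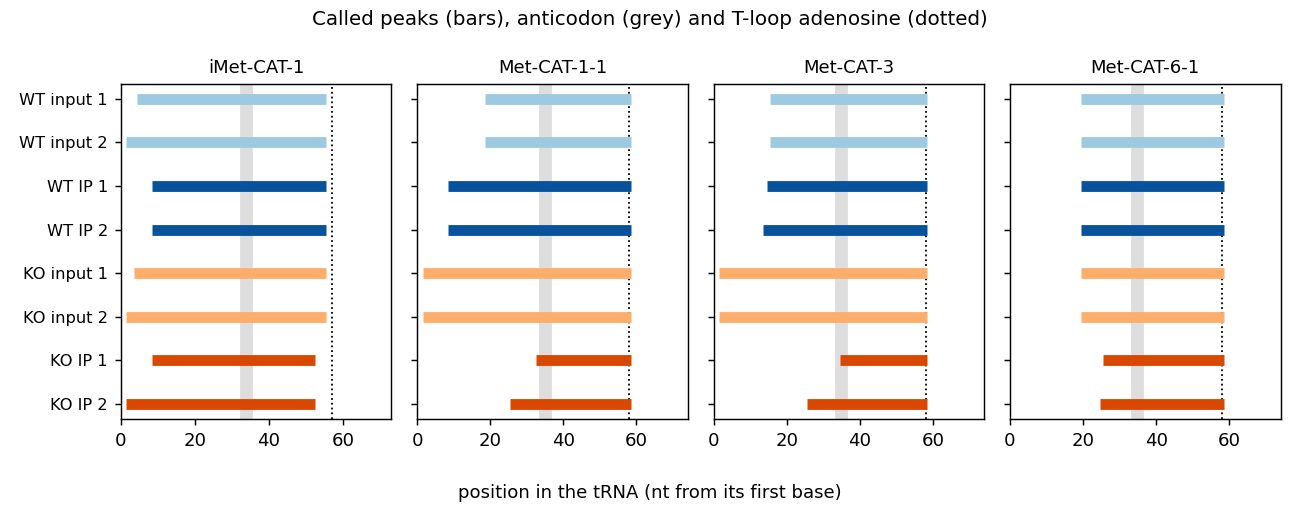
Called peaks (bars) on the 4 methionine tRNA references with a peak in every library, as positions in nucleotides from the first base of the tRNA, 1 row per library. Grey marks the anticodon and the dotted line the T-loop adenosine. Elongator peaks end at 58 in all libraries and begin later in the KO IPs, and the initiator peak ends at 52 in KO IP and at 55 elsewhere.

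Reads that did not map to the tRNA and rRNA references were mapped to the genome, and there 4 initiator and 4 elongator gene loci had a peak on their own strand. The locus of the initiator gene TRX-CAT1-1 was listed in every library. It held 12 and 16 counts in WT input, 49 and 35 in WT IP, 82 and 146 in KO input and 48 and 49 in KO IP. That is 145 ± 25.3, 736 ± 18.1, 466 ± 63.4 and 919 ± 29.2 CPM (SD, n = 2 each). Here both IP groups lay above their inputs, the opposite of the initiator reference. The counts come from different reads, since the locus holds only reads that missed the references and hit the genome once. What set these reads apart was not tested.

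The log2 IP over input at TRX-CAT1-1 was 2.26 ± 0.25 in WT and 0.88 ± 0.19 in KO (edgeR adjusted p = 0.00252 and 0.00836), with 23% and 25.6% of regions called higher. The KO call was lost with DESeq2 (0.94, adjusted p = 0.112) and without KO IP replicate 2 (0.68) or KO input replicate 1 (0.72). The interaction was 1.73 ± 0.33 (edgeR adjusted p = 0.00653) and kept its call without each library in turn (1.47 to 1.84). The IPs were not called different between genotypes (-0.062, edgeR adjusted p = 0.871), whereas the inputs were, lower in WT (-1.63 ± 0.23, edgeR adjusted p = 0.0208). The interaction thus stood beside a difference called between the inputs and none called between the IPs. The input call was lost with DESeq2 (-1.57, adjusted p = 0.124) and without KO input replicate 1, KO input replicate 2 or WT input replicate 2 (edgeR adjusted p of 0.0639 to 0.106).

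The peak at this locus also lay elsewhere in the IPs. The fold changes and the interaction above therefore compare counts from partly different stretches of the gene. In the inputs it began 3 and 6 nt (WT) and 8 nt (both KO) upstream of the first base of the tRNA and ended at positions 57 and 58 (WT) and 62 and 65 (KO). In the WT IPs it covered positions 47 to 68 and 46 to 68, and in the KO IPs 56 to 69 and, from 5 nt upstream, to 69. The gene with 20 nt on each side is printed because the peaks reach past its first base, with capitals for the bases inside both WT IP peaks (chr1:153671230-153671341, plus strand, GRCh38).
TRX-CAT1-1 with flanks: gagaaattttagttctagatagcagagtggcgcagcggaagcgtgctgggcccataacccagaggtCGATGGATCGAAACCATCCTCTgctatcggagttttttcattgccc

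**Figure D5:**
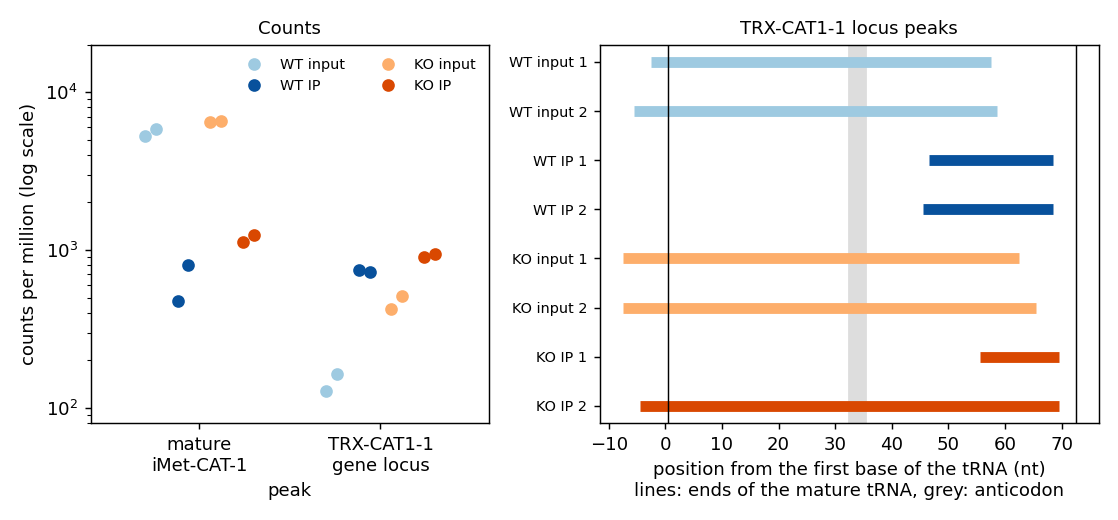
Left, counts in CPM (log scale) of the iMet-CAT-1 reference and of the TRX-CAT1-1 gene locus, 1 point per library; right, the locus peaks as positions in nucleotides from the first base of the tRNA, with lines at the ends of the tRNA and grey at the anticodon. IPs lie below inputs for the reference and above them at the locus, whose reads did not map to the references. At the locus, 3 of the 4 IP peaks cover the 3′ part of the gene alone.

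The other initiator loci, TRX-CAT1-2, TRX-CAT1-3 and TRX-CAT1-8, were listed in KO input replicate 2 alone, with 11, 10 and 11 counts, where the list minimum is worth the fewest CPM. Among elongator loci, TRM-CAT1-1 held 44 and 39 counts in WT input, 202 and 249 in KO input, 23 and 19 in KO IP and 12 in WT IP replicate 2, and was not listed in WT IP replicate 1. It fell by 1.36 ± 0.24 on the log2 scale from KO input to KO IP (edgeR adjusted p = 0.00377, 30.9% of regions called lower). The locus was covered from 6 nt upstream to position 62 in the KO inputs, but only from 26 to 58 and 59 in the KO IPs. It was also lower in the WT than in the KO inputs (log2 -1.10 ± 0.21, edgeR adjusted p = 0.0311), a call lost with DESeq2 (-1.03, adjusted p = 0.130) and without WT input replicate 2, KO input replicate 1 or KO input replicate 2 (edgeR adjusted p of 0.0911 to 0.136). TRM-CAT3-2 was listed with 26 and 32 counts in WT IP and 11 in KO input replicate 2. TRM-CAT6-1 was listed with 17 and 33 counts in WT IP, 15 in WT input replicate 1 and 13 and 11 in KO input, and TRM-CAT3-1 with 10 and 12 in KO input. These low loci could not be tested, since they were not listed in all libraries of a comparison.

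The mRNAs of 30 genes of methionine tRNA biology, among them the methionyl-tRNA synthetase MARS1, the eIF2 subunits, the tRNA methyltransferases NSUN2 and TRMT6 and ALKBH1 itself, were looked up in the genome lists. Of the 30, 0 had a sense peak in any library, so their levels could not be read from these data.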

How the data were processed

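ARP sequencing was made from 8 libraries, 2 per group. The authors used the iCount consensus mapping pipeline, with removal of PCR duplicates by unique molecular identifiers, STAR mapping to tRNA and rRNA, mapping of the remainder to GRCh38 with only unique hits kept, and Paraclu peak calling at default parameters in each library. The deposited score of a peak is its count, as a whole number with no normalization, and start and end are positions. Which base of a read was counted is not given in the sources used here for these libraries. The sequences of the tRNA list were not used here, and its positions were taken to count from the first base of the tRNA gene. The spike-in was not analysed here.

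Peaks were merged where they overlapped by at least 1 nt on 1 strand, counts were scaled to the summed peak counts of both lists (CPM), and 25 of 26 reference names were in the GRCh38 FASTA with 0 peaks past an end. Since listed peaks alone enter these totals, they are not library depth, and a feature under 10 counts is missing and not 0. Features with a peak in every compared library were fitted with a two-sided quasi-likelihood test after TMM scaling (edgeR 4.0.16, R 4.3.3), with p adjusted by Benjamini-Hochberg and a threshold of 0.05, once as regions and once with cytosolic tRNA summed per isoacceptor. The standard error was the size of the log2 fold change over the square root of F. Each comparison held its own groups and so its own scaling, and the interaction held all 8 libraries. The initiator to elongator ratio was compared with exact permutation tests. The fits were tested on simulated data. Alternatives were RLE scaling, peak totals as library sizes, DESeq2 1.42.0, a mean count of at least 50, peaks of at least 20 counts, an overlap of at least 50%, uncalled features at 0, the replicate number as a block, and leaving out each library. Every methionine tRNA reference was accounted for, and those listed in all libraries, their gene loci, tRNA-Leu-CAA and mt-tRNA-Met were named. The members and lists were chosen with earlier results of these data known. Python 3.11.15, numpy 2.4.6, scipy 1.17.1, pysam 0.24.0, Biopython 1.88 and matplotlib 3.10.9 were used.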

Additional observations from a re-analysis of the deposited data

Results flagged for a closer look

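In 3 cases the main fit called IP over input different between WT and KO by the interaction test. At the initiator gene locus TRX-CAT1-1 the log2 interaction was 1.73 (edgeR adjusted p = 0.00653), with input and IP peaks on partly different stretches. For the elongator tRNA-Met-CAT summed over its references it was 1.42 (edgeR adjusted p = 0.0380), and for the reference tRNA-Met-CAT-6-1, which is part of that sum, 1.39 (edgeR adjusted p = 0.0469). Elongator peaks also lay on partly different stretches. Both elongator calls were lost under several alternatives given below, and the TRX-CAT1-1 call with uncalled features at 0. Groups of 2 libraries are too small to look for single outlying samples.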

How the results depend on the processing

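With all libraries kept, 75 of 85 alternative values of the family sums and ratios stayed on the same side of the threshold in the same direction. The elongator interaction also lost its call with a mean count of at least 50 (1.00), with peaks of at least 20 counts (1.14) and with uncalled features at 0 (0.87), beside RLE (1.20) and peak totals (0.86). The cause was not tested. The initiator between inputs turned to 0.036 with a mean count of at least 50. Between the IPs, tRNA-Met-CAT-1-1 turned to -0.027 with DESeq2 and with RLE, -0.25 with peak totals and -0.053 with uncalled features at 0, and the TRX-CAT1-1 locus to 0.0053 with peaks of at least 20 counts. The TRX-CAT1-1 interaction lost its call with uncalled features at 0 (1.41), and that of tRNA-Met-CAT-6-1 ran from 1.03 to 1.24 with no call under 6 alternatives. With uncalled features at 0 the TRX-CAT1-1 difference in KO and the input differences of TRX-CAT1-1, TRM-CAT1-1 and tRNA-Met-CAT-1-1 lost their calls too (adjusted p of 0.0518 to 0.0823).

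Leaving out 1 library, the initiator sum ran from -3.65 to -2.71 (WT IP over input) and -2.77 to -2.58 (KO) with every call kept, -0.999 to -0.19 (IPs), -0.18 to -0.019 (inputs) and -0.65 to 0.25 (interaction, 0.25 without WT IP replicate 1). The elongator sum ran from 0.18 to 1.07, -0.67 to -0.19, 0.24 to 1.01, -0.63 to -0.24 and 0.91 to 1.77 in the same order. In KO, tRNA-Met-CAT-3 and tRNA-Met-CAT-6-1 ran from -0.68 and -0.67 to 0.056 and 0.033, the last 2 without KO IP replicate 1, and between the IPs tRNA-Met-CAT-1-1 ran from -0.21 (without KO IP replicate 1; -0.15 without WT IP replicate 2) to 0.17. The log2 ratio of initiator to elongator ran from -3.29 to -2.82 between fractions, where 3 against 4 allows no p below 0.0571, and from -1.12 to 0.19 between genotypes (0.19 and 0.18 without WT IP replicate 1 and 2).

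In the study's methods, each input was taken from the ARP-treated RNA whose remainder went to the beads. Whether equal replicate numbers mark such a pair of input and IP is not stated. Deviations of same-numbered libraries correlated (r between 0.230 and 0.533 over regions, the highest for WT IP and WT input). With the replicate number as a block, the elongator was called between the IPs (0.63), in WT (0.61) and between the inputs (-0.44). Of single references, the block also gave calls to tRNA-Met-CAT-3 (0.68), tRNA-Met-CAT-6-1 (0.80) and tRNA-iMet-CAT-1 (-0.67) between the IPs, to tRNA-Met-CAT-6-1 in WT (0.79), to tRNA-iMet-CAT-2-1 between the inputs (1.02), and to the interactions of tRNA-Met-CAT-1-1 (1.08) and tRNA-Met-CAT-3 (1.13), so that all 3 elongator references passed that test (edgeR adjusted p of 0.00203 to 0.0370 over these 7 added calls). Under the block the ratio between fractions stood at -3.03 with an exact permutation p of 0.125, the smallest that the block allows. Calls between the inputs went from 95 to 182 features with the block.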
